A study of Homo sapiens with 15 samples.

Results

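In all, 6 libraries of HaCaT cells given undoped Ag2S nanoparticles (NPs) were compared here by dose, replicates 7, 8 and 9 at 320 µg/mL with replicates 4, 5 and 6 at 160 µg/mL. They were chosen from the sample labels and are 6 of the 15 libraries of the series. HaCaT is an established line of immortal keratinocytes, the cells that build the epidermis, and Ag2S NPs are silver sulfide particles that emit near-infrared light. Cells of both groups were exposed for 24 h and carry no genetic change named in the labels, so dose is the only labelled difference between them. The other 9 libraries are 3 of cells given Li-doped Ag2S NPs at 320 µg/mL, 3 of cells given the doped particles at 160 µg/mL and 3 of untreated cells. All come from the same cell line, and no source used here states that the libraries of a group were separate cultures, so p-values measure the spread between these libraries, which may be technical. RNA was read as pairs of 150 bases, and each gene has an FPKM value per library, that is, its fragments divided by its length and by the total of the library.

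The study asked whether the particles switch on matrix production through TGF-β. In skin, TGF-β binds its receptors on keratinocytes and fibroblasts, SMAD proteins carry the signal to the nucleus, and genes for collagen, fibronectin and other matrix proteins are transcribed, while growth of keratinocytes is held back and the ID genes are turned down. The comparison of the doses asks which of these genes, and which other programs, moved further when the dose was raised.

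Of 11952 genes with a mean of at least 1 FPKM over the 15 libraries, 579 were higher and 918 lower at 320 µg/mL than at 160 µg/mL (limma on log2(FPKM + 0.1), adjusted p under 0.05). These are 4.84% and 7.68% of the genes tested, 12.5% in all, and the counts in gene lists below stand against these shares. At an unadjusted p under 0.05 in limma, 3250 of the genes tested differed in either direction. Most differences were small, with a median size of 0.49 on the log2 scale among the 1497 called genes, and 103 of the higher and 54 of the lower genes passed a 2-fold difference. Over all genes tested the median was -0.04. Dividing each library by its median ratio turned the split to 801 higher and 625 lower, so the balance of directions over all genes depends on the scaling. Leaving out a library lowered the count of higher genes to 363 without replicate 6, 350 without replicate 7, 342 without replicate 8 and 331 without replicate 9, and that of lower genes to 584 without replicate 7 and also 584 without replicate 8. The plot of fold change against level shows the called genes at all levels of expression.

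**Figure D1:**
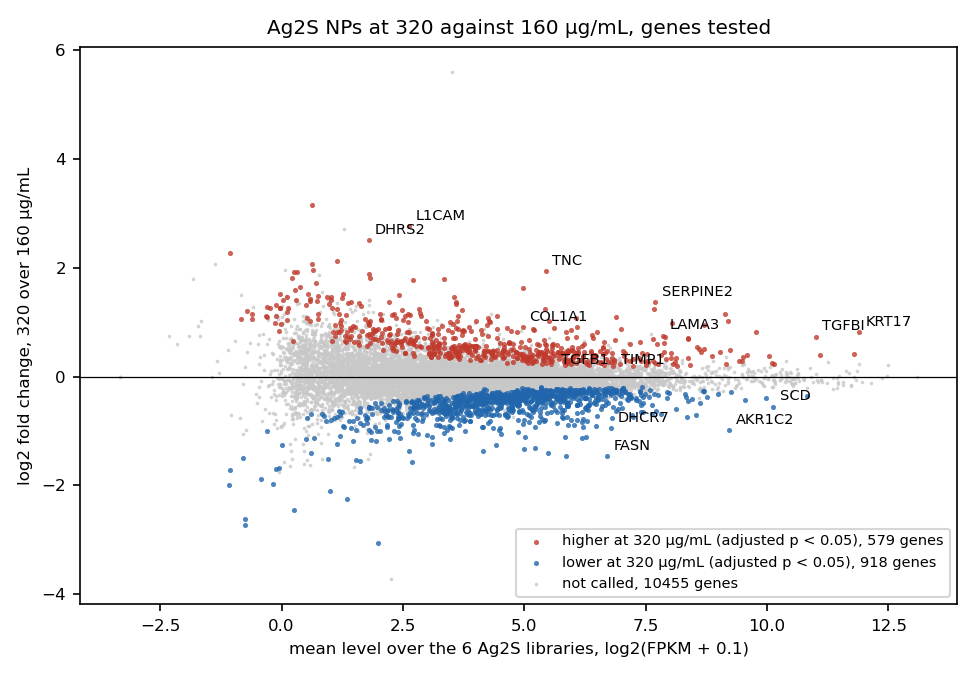
Each point is a gene, placed by its mean level over the 6 Ag2S libraries, as log2(FPKM + 0.1), and its log2 fold change at 320 over 160 µg/mL. The 579 red genes were higher and the 918 blue genes lower at 320 µg/mL, and the grey ones were not called.

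Summed FPKM ran from 582438 to 623754 at 320 µg/mL and from 589958 to 648703 at 160 µg/mL, and the depth in reads is unknown because the tables hold FPKM only. Replicate 6 at 160 µg/mL lay farthest from the others of its group, at a median distance of 0.206 on the log2 scale, while the other 5 libraries lay between 0.102 and 0.171. Pearson's r across the genes tested, which do not replicate each other independently, was 0.977 to 0.986 within a group and 0.967 to 0.979 between the doses. All 12 keratinocyte markers were expressed, with summed levels of 21208 to 23898 FPKM at 320 µg/mL and 19209 to 21292 FPKM at 160 µg/mL. Of the 9 fibroblast markers measured, 4 averaged under 0.1 FPKM at each dose, and the 9 summed to 2.27 to 4.1 FPKM at 320 µg/mL, 7.69 to 7.93 FPKM at 160 µg/mL and 13.2 to 16.3 FPKM in untreated cells. LUM, the matrix proteoglycan lumican, made part of that sum, with 0.52, 0.14 and 0.2 FPKM at 320 µg/mL, against 1.61, 2.49 and 1.58 FPKM at 160 µg/mL (log2 fold change -2.46 ± 0.46 SE, adjusted p = 0.00267). The 4 leukocyte markers measured, mostly CD68, a lysosomal protein that other cells express too, summed to 18.4 to 22 FPKM at 320 µg/mL, 13.7 to 15.8 FPKM at 160 µg/mL and 11.1 to 12.3 FPKM in untreated cells, and 1 of the 2 tested was called higher. The part of these low levels in the other results was not tested. In bulk RNA, fewer cells of a kind and less RNA per cell cannot be told apart.

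TGFB1, the ligand that opens the pathway, lies at chr19:41301587-41353911 in GENCODE 29 on GRCh38. It had 49.6, 50.3 and 53.9 FPKM at 320 µg/mL, against 44.2, 51.6 and 46.9 FPKM at 160 µg/mL, and 25.4, 24.6 and 22.7 FPKM in untreated cells. The libraries of the doses overlapped, and the difference between them was 0.11 on the log2 scale with a 95% interval of -0.11 to 0.33 (log2 fold change 0.11 ± 0.10 SE, adjusted p = 0.532). TIMP1, an inhibitor of matrix metalloproteinases, had 110.5, 128 and 125 FPKM at 320 µg/mL, against 103, 113 and 121 FPKM at 160 µg/mL, and 63.1, 64.1 and 72.8 FPKM in untreated cells. Its groups overlapped as well, with an interval of -0.09 to 0.31 (log2 fold change 0.11 ± 0.09 SE, adjusted p = 0.491). Neither gene passed the test between the doses, and the intervals leave room for differences of up to 0.33 and 0.31. Of 17 tested genes for ligands, receptors, SMADs and their feedback, SMAD7 was the one called, and 2 were higher and 1 lower at an unadjusted p under 0.05. That call is 5.88% of the list, against 4.84% of all genes higher. SMAD7, the inhibitory SMAD that TGF-β itself induces, had 22.1, 21.7 and 21.6 FPKM at 320 µg/mL, against 17.6, 16.5 and 13.1 FPKM at 160 µg/mL (log2 fold change 0.48 ± 0.13 SE, adjusted p = 0.0256). Its call was lost without replicate 6 (adjusted p = 0.108), replicate 7 (0.0765), replicate 8 (0.0696) or replicate 9 (0.0644), with limma each time.

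COL1A1, the α1 chain of type I collagen at chr17:50183289-50201632, had 42.7, 38.6 and 40.2 FPKM at 320 µg/mL, against 24.7, 23.4 and 17.3 FPKM at 160 µg/mL, and 6.7, 7.01 and 5.54 FPKM in untreated cells. All libraries at 320 µg/mL were above all at 160 µg/mL, and the rise was called (log2 fold change 0.91 ± 0.13 SE, adjusted p = 4.47e-04). TGM2, the transglutaminase that crosslinks matrix proteins, was close to silent in untreated cells, with 0.58, 0.84 and 1.11 FPKM in untreated cells. It had 91, 84.4 and 96.8 FPKM at 320 µg/mL, against 45.8, 40 and 42.5 FPKM at 160 µg/mL (log2 fold change 1.08 ± 0.16 SE, adjusted p = 4.75e-04). In both genes the libraries of the doses did not overlap.

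Of the 19 matrix genes that the study listed for 320 µg/mL, 18 passed the filter on low values and COL8A2 did not. At 320 against 160 µg/mL 11 of the 18 were higher, 1 was lower and 6 were not called, against 4.84% and 7.68% of all genes. Their median log2 fold change was 0.62, against -0.04 for all genes. The list was chosen by the study on libraries that include the 3 at 320 µg/mL, so its direction is not independent evidence. TNC, the matrix glycoprotein tenascin-C of wound edges, at chr9:115019578-115118257, had 72.7, 65.2 and 67.5 FPKM at 320 µg/mL, against 22.3, 17.2 and 14.8 FPKM at 160 µg/mL, and 1.29, 1.37 and 2.53 FPKM in untreated cells (log2 fold change 1.93 ± 0.19 SE, adjusted p = 1.13e-05). It rose more than any other member. LAMA3 and LAMB3 encode chains of laminin-332, which anchors keratinocytes to the basement membrane. LAMA3, at chr18:23689443-23956222, had 304, 296 and 276 FPKM at 320 µg/mL, against 187, 171 and 164 FPKM at 160 µg/mL, and 59.5, 58.5 and 61.8 FPKM in untreated cells (log2 fold change 0.75 ± 0.08 SE, adjusted p = 3.49e-05). All its libraries at 320 µg/mL were above all at 160 µg/mL. LAMB3 rose by less, with 1179, 1179 and 1217 FPKM at 320 µg/mL, against 1031, 1027 and 958 FPKM at 160 µg/mL (log2 fold change 0.25 ± 0.06 SE, adjusted p = 0.0192), and this call was lost without replicate 6 (adjusted p = 0.059), replicate 8 (0.0577) or replicate 9 (0.0726).

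TGFBI, a secreted adhesion protein named for its induction by TGF-β, had 2543, 2526 and 2640.2 FPKM at 320 µg/mL, against 1555, 1500.2 and 1584 FPKM at 160 µg/mL (log2 fold change 0.73 ± 0.06 SE, adjusted p = 3.32e-06). FN1, fibronectin, had 179, 154 and 163 FPKM at 320 µg/mL, against 104, 93.6 and 74.8 FPKM at 160 µg/mL (log2 fold change 0.87 ± 0.12 SE, adjusted p = 2.32e-04). Again the groups did not overlap. COL5A1 rose too (log2 fold change 0.85 ± 0.11 SE, adjusted p = 1.86e-04), as did COL4A1, a chain of basement membrane collagen (log2 fold change 0.51 ± 0.10 SE, adjusted p = 0.00374), and ENTPD2, an enzyme that breaks down extracellular ATP (log2 fold change 0.70 ± 0.17 SE, adjusted p = 0.0117). COL18A1 was called at a log2 fold change of 0.38, and the call was lost without replicate 5 (adjusted p = 0.055), replicate 6 (0.144), replicate 7 (0.104) or replicate 9 (0.135). The members not called by limma include COL7A1, the anchoring fibril collagen, whose replicate 6 stood low. It had 258, 214 and 259 FPKM at 320 µg/mL, against 177, 177 and 90.4 FPKM at 160 µg/mL (log2 fold change 0.78 ± 0.26 SE, adjusted p = 0.0648), so the groups did not overlap but the spread at 160 µg/mL was wide. SPARC (log2 fold change 0.53 ± 0.21 SE, adjusted p = 0.107), LOXL1 (log2 fold change 0.36 ± 0.15 SE, adjusted p = 0.131) and COL4A2 (log2 fold change 0.22 ± 0.09 SE, adjusted p = 0.108) were positive without passing the test. SPARC did pass in the 6 Ag2S libraries alone (adjusted p = 0.0124) and with weights per library (0.0452), and COL7A1 with median ratio scaling (0.0391) and with weights per library (0.048), with limma each time. AMTN, amelotin, a protein of the junction between tooth and gum, was the exception. It had 8.43, 10.8 and 10.5 FPKM at 320 µg/mL, against 24.7, 27.5 and 24.6 FPKM at 160 µg/mL, and 4.02, 4.37 and 3.25 FPKM in untreated cells, so the level at 320 µg/mL lay between the others (log2 fold change -1.36 ± 0.28 SE, adjusted p = 0.00551).

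**Figure D2:**
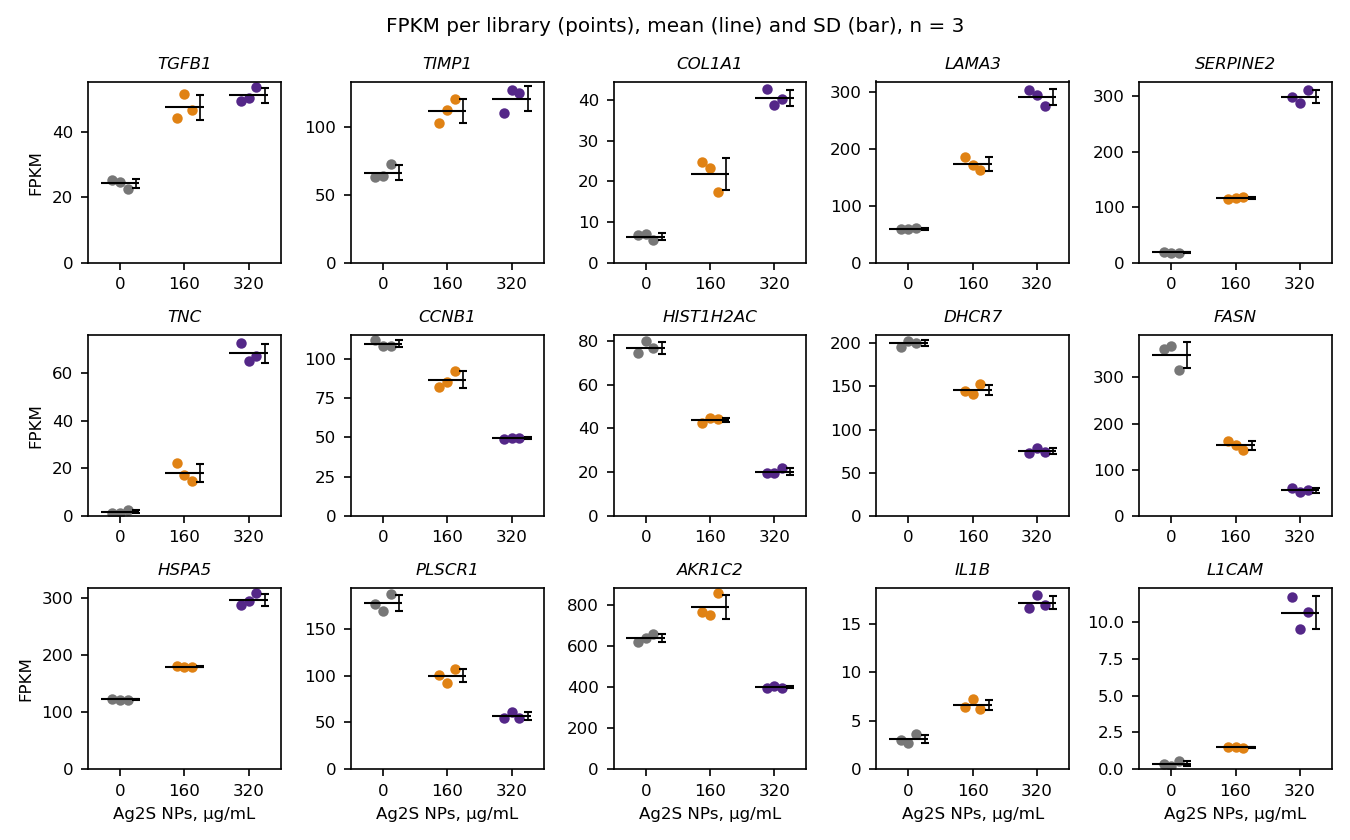
FPKM of 15 genes in each of the 9 libraries of untreated cells (0) and cells with Ag2S NPs at 160 and 320 µg/mL, with points for libraries, a line for the mean and a bar for the SD (n = 3). COL1A1, LAMA3, SERPINE2, TNC, HSPA5, IL1B and L1CAM climb with dose, TGFB1 and TIMP1 overlap between 160 and 320 µg/mL, and AKR1C2 is highest at 160 µg/mL.

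Beyond the study's list, 33 genes known to be induced by TGF-β in epithelial cells were tested, 7 of which the matrix list also holds. Of these 17 were higher and none lower at an adjusted p under 0.05 with limma, and 20 were higher and 1 lower at an unadjusted p under 0.05. The median log2 fold change was 0.44 against -0.04 for all genes. SERPINE2, a secreted inhibitor of serine proteases such as thrombin, at chr2:223975112-224039319, had 298, 288 and 312 FPKM at 320 µg/mL, against 115, 116 and 117 FPKM at 160 µg/mL, and 19.6, 17.7 and 17.8 FPKM in untreated cells (log2 fold change 1.36 ± 0.06 SE, adjusted p = 2.71e-09). Every library at 320 µg/mL was more than 2-fold above every library at 160 µg/mL. ID2, an inhibitor of helix-loop-helix factors that BMP signals induce, was lower, with 4.2, 4.18 and 3.52 FPKM at 320 µg/mL, against 6.04, 6.73 and 6.3 FPKM at 160 µg/mL, and 42.4, 48.8 and 49.2 FPKM in untreated cells (log2 fold change -0.67 ± 0.16 SE, adjusted p = 0.0132), a call lost without replicate 9 (adjusted p = 0.0604). Its relative ID3 was not called (log2 fold change -0.21 ± 0.12 SE, adjusted p = 0.265), with overlapping libraries at the doses. ID2 was the 1 lower gene of 13 tested members of an ID and BMP list, and none was higher. That is 7.69% of the list, against 7.68% of all genes lower.

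Of 23 genes of matrix breakdown 9 were higher, 39.1% against 4.84% of all genes, and 2 were lower, 8.7% against 7.68%. MMP10, the metalloproteinase stromelysin-2, had 764, 776 and 784 FPKM at 320 µg/mL, against 356, 352 and 341 FPKM at 160 µg/mL (log2 fold change 1.15 ± 0.05 SE, adjusted p = 5.12e-09), and MMP1, interstitial collagenase, had 551, 542 and 553 FPKM at 320 µg/mL, against 289, 279 and 285 FPKM at 160 µg/mL (log2 fold change 0.95 ± 0.06 SE, adjusted p = 2.74e-07). Each had its 3 libraries at 320 µg/mL above its 3 at 160 µg/mL. MMP7, matrilysin, went the other way, with 2.54, 3.51 and 3.93 FPKM at 320 µg/mL, against 7.73, 7.44 and 11 FPKM at 160 µg/mL (log2 fold change -1.36 ± 0.34 SE, adjusted p = 0.0153), a call lost without replicate 6 (adjusted p = 0.0666) or replicate 7 (0.0717). With 1 library left out the count of lower genes in this list was 0 without replicate 7 and 1 without each of the others.

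Collagen chains, COL1A1 included, were also counted as a family. Of 16 tested chains 5 were higher and none lower with limma, 10 were higher and none lower at an unadjusted p under 0.05, and the median was 0.37. The 5 called are 31.2% of the chains, against 4.84% of all genes higher. They include COL1A1, COL5A1 and COL4A1 of the study's matrix list, which was chosen on libraries at 320 µg/mL. This share is therefore not independent evidence. COL5A3, a chain of the type V collagen that sits within collagen I fibrils, rose most, with 7.31, 8.08 and 8 FPKM at 320 µg/mL, against 2.99, 2.58 and 2.58 FPKM at 160 µg/mL (log2 fold change 1.49 ± 0.13 SE, adjusted p = 3.32e-06).

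Most genes of cell division were lower at the larger dose. All 40 tested genes of mitosis and the spindle had a negative log2 fold change at 320 over 160 µg/mL, 36 of them passed the test as lower and none as higher, and at an unadjusted p under 0.05 the counts were 40 and 0. Their median was -0.68 against -0.04 for all genes. These genes peak as cells divide, and many carry in their promoters a CHR element, TTTGAA, downstream of a CCAAT box, sites through which the DREAM and MuvB complexes and NF-Y time transcription in the cell cycle. The promoters of CCNB2 and PLK1 are printed because their genes are among the 4 with the smallest p-values of the list and hold both elements. They are the 250 bases before the RefSeq start in GRCh38.p14, 5′ to 3′ on the gene's strand, chr15:59104896-59105145 on the plus strand for CCNB2 and chr16:23678639-23678888 on the plus strand for PLK1, with TTTGAA and CCAAT in capitals.
CCNB2: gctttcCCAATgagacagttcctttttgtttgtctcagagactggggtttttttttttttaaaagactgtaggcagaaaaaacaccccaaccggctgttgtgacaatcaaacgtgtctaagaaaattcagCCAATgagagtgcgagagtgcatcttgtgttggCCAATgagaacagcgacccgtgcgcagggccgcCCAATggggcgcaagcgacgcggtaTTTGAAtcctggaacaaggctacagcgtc
PLK1: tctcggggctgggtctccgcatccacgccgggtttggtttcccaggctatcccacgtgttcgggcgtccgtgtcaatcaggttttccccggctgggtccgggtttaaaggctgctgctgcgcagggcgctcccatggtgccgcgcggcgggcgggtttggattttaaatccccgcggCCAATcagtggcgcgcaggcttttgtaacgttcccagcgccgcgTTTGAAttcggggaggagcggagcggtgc
In both promoters TTTGAA begins 29 bases before the start. A search of both strands found TTTGAA in 19 of 34 matched promoters of the list, 55.9%, against 8% of 9263 promoters of tested genes, and CCAAT in 27 of 34, 79.4%, against 35.5%. Many genes of this kind are known to carry these sites, so the larger shares are not independent evidence. A match is a description of the letters and shows no binding.

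CCNB1, cyclin B1 that starts mitosis with CDK1, at chr5:69167010-69178245, had 48.8, 49.8 and 49.4 FPKM at 320 µg/mL, against 81.9, 85 and 92.3 FPKM at 160 µg/mL, and 112, 108 and 108 FPKM in untreated cells (log2 fold change -0.80 ± 0.06 SE, adjusted p = 9.93e-07). CCNB2, its sister cyclin, had 34.4, 36.3 and 37.8 FPKM at 320 µg/mL, against 63.8, 62.8 and 70.8 FPKM at 160 µg/mL (log2 fold change -0.86 ± 0.07 SE, adjusted p = 1.52e-06). PLK1, the kinase of spindle assembly and mitotic exit, had 22.3, 21.8 and 21.8 FPKM at 320 µg/mL, against 40.7, 39.8 and 40.8 FPKM at 160 µg/mL (log2 fold change -0.88 ± 0.07 SE, adjusted p = 1.90e-06). For each of the 3, the highest library at 320 µg/mL was below the lowest at 160 µg/mL, which in turn was below untreated cells. FOXM1, the transcription factor that drives many of these genes, fell likewise (log2 fold change -0.95 ± 0.08 SE, adjusted p = 2.66e-06). CENPW, a histone-fold protein of the centromere outside the list, at chr6:126340174-126348875, had 30.6, 29.6 and 32.5 FPKM at 320 µg/mL, against 76.4, 84 and 96.6 FPKM at 160 µg/mL, and 87.4, 87.2 and 96.8 FPKM in untreated cells. Its libraries at 160 µg/mL overlapped those of untreated cells, and only those at 320 µg/mL stood apart (log2 fold change -1.46 ± 0.10 SE, adjusted p = 2.55e-07).

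Fewer genes of DNA replication were called. Of 40 tested, 7 were lower and none higher with limma, 15 and 0 at an unadjusted p under 0.05, with a median of -0.23, and the count fell to 4 without replicate 6, 8 or 9. The 7 are 17.5% of the list, against 7.68% of all genes lower. MCM5, part of the helicase that opens the DNA, had 10.1, 10.8 and 11.1 FPKM at 320 µg/mL, against 19.5, 15.9 and 16.5 FPKM at 160 µg/mL (log2 fold change -0.69 ± 0.13 SE, adjusted p = 0.0032), and PCNA, the sliding clamp, had 59.4, 55 and 60.7 FPKM at 320 µg/mL, against 72.9, 70.7 and 76.6 FPKM at 160 µg/mL (log2 fold change -0.33 ± 0.07 SE, adjusted p = 0.00447). Neither overlapped between the doses. Of 44 histone genes measured, 24 fell below the filter on low values and were not tested. Among the 20 tested, 12 were lower and none higher (14 and 0 at an unadjusted p under 0.05), with a median of -0.91. HIST1H2AC had 19.4, 19.6 and 21.9 FPKM at 320 µg/mL, against 42.6, 44.6 and 44.2 FPKM at 160 µg/mL, and 74.3, 79.8 and 76.8 FPKM in untreated cells (log2 fold change -1.11 ± 0.08 SE, adjusted p = 2.74e-07). HIST1H2BK had 36, 34.6 and 37.9 FPKM at 320 µg/mL, against 68.3, 80.7 and 85.1 FPKM at 160 µg/mL (log2 fold change -1.10 ± 0.09 SE, adjusted p = 1.90e-06). HIST1H4H, HIST1H2BD and HIST1H2BC were among the 15 largest falls at -1.56, -1.33 and -1.13 on the log2 scale. These genes encode near-identical proteins from clustered copies, so reads may have been divided among them, and each value is uncertain by that.

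**Figure D3:**
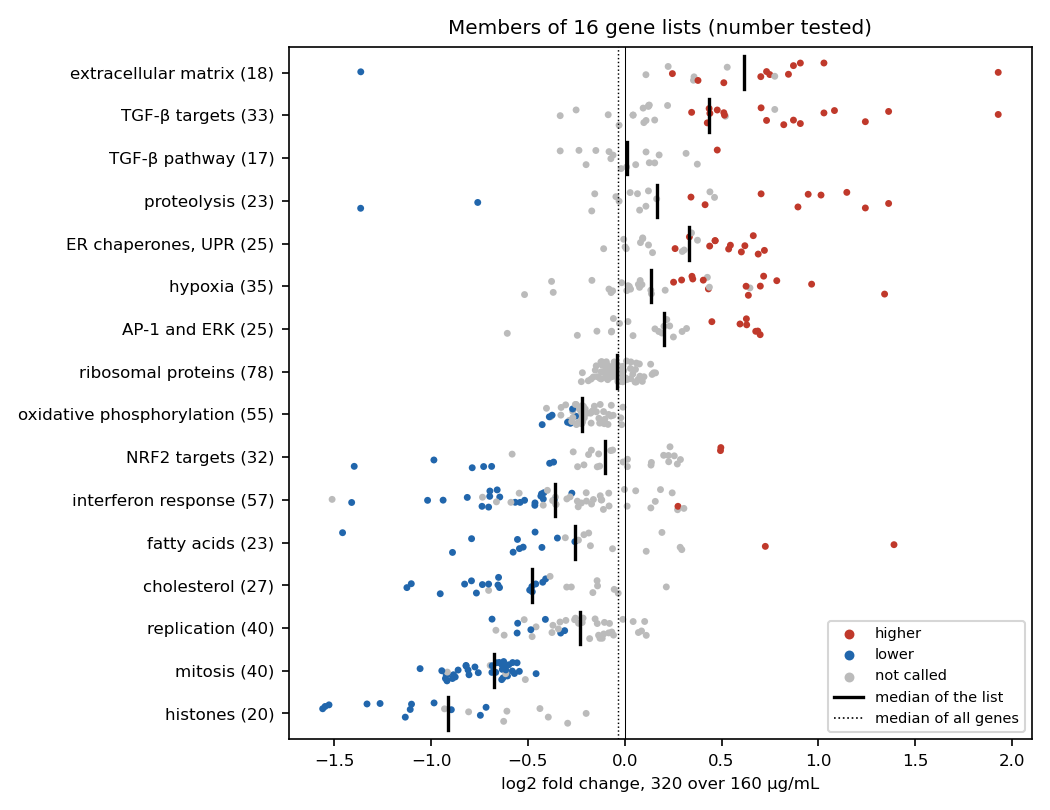
Each point is a tested gene of 1 of 16 lists, placed by its log2 fold change at 320 over 160 µg/mL, with thick ticks for list medians and a dotted line for the median of all genes. Matrix genes and TGF-β targets lie mostly to the right, and all 40 mitosis genes and all 20 histone genes lie left of 0.

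Most tested genes of sterol synthesis were lower at the larger dose. Of 27 genes of cholesterol synthesis and uptake 17 were lower and none higher with limma, 21 and 0 at an unadjusted p under 0.05, and the median was -0.48. Transcription of this pathway is run by SREBP-2, which sterols hold back in the endoplasmic reticulum (ER). DHCR7, the last enzyme of the Kandutsch-Russell branch, had 73.4, 79.1 and 73.8 FPKM at 320 µg/mL, against 145, 141 and 153 FPKM at 160 µg/mL, and 196, 203 and 201 FPKM in untreated cells (log2 fold change -0.95 ± 0.09 SE, adjusted p = 4.11e-06). Every library at 320 µg/mL was below every library at 160 µg/mL. INSIG1, the ER anchor that retains SREBP, fell (log2 fold change -0.83 ± 0.07 SE, adjusted p = 4.11e-06), as did EBP, a sterol isomerase (log2 fold change -0.65 ± 0.07 SE, adjusted p = 2.24e-05).

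Fatty acid genes went the same way in part, with 11 of 23 lower and 2 higher, FADS3 and ELOVL4. FASN, the fatty acid synthase at chr17:82078333-82098332, had 61.4, 50.8 and 55.1 FPKM at 320 µg/mL, against 163, 153 and 143 FPKM at 160 µg/mL, and 361, 367 and 315 FPKM in untreated cells (log2 fold change -1.46 ± 0.14 SE, adjusted p = 8.09e-06). It was among the 15 largest falls taken by the rule. SCD, the desaturase that makes oleic acid, had 979, 920.3 and 834 FPKM at 320 µg/mL, against 1400.5, 1314 and 1294 FPKM at 160 µg/mL (log2 fold change -0.55 ± 0.09 SE, adjusted p = 9.03e-04), and ACSL1, which activates fatty acids with coenzyme A, had 9.25, 8.35 and 8.38 FPKM at 320 µg/mL, against 17.6, 14.7 and 16.3 FPKM at 160 µg/mL (log2 fold change -0.89 ± 0.09 SE, adjusted p = 1.46e-05). All 3 were ordered by dose, with untreated cells highest.

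Several chaperones of the ER rose. The unfolded protein response senses misfolded protein in the ER through IRE1, PERK and ATF6, and ATF6 and XBP1 bind the ER stress element, CCAAT with 9 bases before CCACG. Of 25 tested genes of the response 12 were higher and none lower with limma, 14 and 0 at an unadjusted p under 0.05, and the median was 0.33. The other 13 were not called, and the count of higher genes was 9 to 11 when a library was left out. HSPA5 and CALR had the 2 smallest p-values of the list, and their promoters, printed as for the cyclins, hold the element in capitals, chr9:125241344-125241593 on the minus strand for HSPA5 and chr19:12938359-12938608 on the plus strand for CALR, where it reads on the opposite strand.
HSPA5: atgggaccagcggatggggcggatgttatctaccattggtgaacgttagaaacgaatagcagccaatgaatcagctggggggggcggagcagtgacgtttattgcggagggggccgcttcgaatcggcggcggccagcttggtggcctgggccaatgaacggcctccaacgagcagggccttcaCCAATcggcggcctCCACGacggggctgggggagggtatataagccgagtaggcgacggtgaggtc
CALR: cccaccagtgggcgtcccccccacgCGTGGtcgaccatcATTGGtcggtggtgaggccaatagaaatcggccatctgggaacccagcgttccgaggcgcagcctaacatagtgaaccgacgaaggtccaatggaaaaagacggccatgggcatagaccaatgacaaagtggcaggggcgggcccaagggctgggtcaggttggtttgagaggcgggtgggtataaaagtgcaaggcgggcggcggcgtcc
Its CCAAT also counts as a CCAAT box. The element was found in 6 of 24 matched promoters of the list, 25%, against 14 of all 9263, 0.151%. The genes were listed for this response, which acts through the element, so the larger share is not independent evidence. Calls of genes outside the list that hold the element were not counted. The other 4 holders within the list, HSP90B1, CANX, CRELD2 and XBP1, named after their values were seen, were called higher as well, by 0.62, 0.26, 0.47 and 0.54 on the log2 scale. The call of CRELD2 was lost in the 6 Ag2S libraries alone (adjusted p = 0.0529). The call of CANX was lost there (0.0631) and without replicate 5 (adjusted p = 0.113), replicate 6 (0.0701), replicate 7 (0.117) or replicate 8 (0.0939). HSPA5, the chaperone BiP, had 288, 295 and 309 FPKM at 320 µg/mL, against 181, 179.6 and 179 FPKM at 160 µg/mL, and 124, 122 and 121 FPKM in untreated cells (log2 fold change 0.72 ± 0.06 SE, adjusted p = 1.52e-06). CALR, the lectin chaperone calreticulin, had 401, 410.1 and 412 FPKM at 320 µg/mL, against 258, 257 and 243 FPKM at 160 µg/mL (log2 fold change 0.69 ± 0.05 SE, adjusted p = 7.20e-07), and PDIA3, which forms disulfide bonds beside it, had 423, 478 and 438 FPKM at 320 µg/mL, against 294, 296 and 327 FPKM at 160 µg/mL (log2 fold change 0.55 ± 0.07 SE, adjusted p = 2.04e-04). All 3 were ordered by dose, and no library at 320 µg/mL overlapped one at 160 µg/mL.

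Targets of ATF4, the factor of the integrated stress response, did not move one way, with 5 of 35 higher and 6 lower. These are 14.3% and 17.1% of the list, against 4.84% and 7.68% of all genes. ATF5, a relative that ATF4 controls, had 14.4, 14.3 and 15.7 FPKM at 320 µg/mL, against 29.8, 33.5 and 29.6 FPKM at 160 µg/mL (log2 fold change -1.06 ± 0.09 SE, adjusted p = 2.38e-06). SLC7A5, a carrier of large amino acids, was higher, by 0.51 on the log2 scale. Among the 35 tested members of a hypoxia and glycolysis list 13 were higher and none lower with limma (14 and 4 at an unadjusted p under 0.05), with a median of 0.14. NDRG1 had 391, 406 and 428 FPKM at 320 µg/mL, against 251, 265 and 238 FPKM at 160 µg/mL (log2 fold change 0.70 ± 0.06 SE, adjusted p = 3.23e-06), and CA12, a carbonic anhydrase of the cell surface, had 15.7, 14.8 and 15.2 FPKM at 320 µg/mL, against 7.27, 8.45 and 7.55 FPKM at 160 µg/mL (log2 fold change 0.97 ± 0.10 SE, adjusted p = 1.51e-05). EGLN3, a prolyl hydroxylase that marks HIF-α for degradation, had 4.79, 4.03 and 3.88 FPKM at 320 µg/mL, against 1.24, 2.05 and 1.61 FPKM at 160 µg/mL and 2.98, 2.33 and 2.77 FPKM in untreated cells (log2 fold change 1.34 ± 0.19 SE, adjusted p = 3.00e-04). Unlike the other 2, EGLN3 was lowest at 160 µg/mL.

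A part of the interferon-stimulated genes was lower. Type I interferon acts through a complex of transcription factors that holds IRF9 and binds the interferon-stimulated response element, here searched as GAAA and GAAA with any 2 bases between them. Of 57 tested interferon-stimulated genes 21 were lower and 1, IRF1, was higher, with a median of -0.36. The other 35 were not called, and the count of lower genes was 15 to 17 when a library was left out. The call of IRF1 was lost without replicate 4 (adjusted p = 0.0813), replicate 6 (0.162), replicate 7 (0.0907), replicate 8 (0.0992) or replicate 9 (0.135). PLSCR1, with the smallest p of the list, and IFIT3, whose window holds 2 matches, are shown with the element in capitals, chr3:146544608-146544857 on the minus strand for PLSCR1 and chr10:89327747-89327996 on the plus strand for IFIT3, where both matches read on the opposite strand.
PLSCR1: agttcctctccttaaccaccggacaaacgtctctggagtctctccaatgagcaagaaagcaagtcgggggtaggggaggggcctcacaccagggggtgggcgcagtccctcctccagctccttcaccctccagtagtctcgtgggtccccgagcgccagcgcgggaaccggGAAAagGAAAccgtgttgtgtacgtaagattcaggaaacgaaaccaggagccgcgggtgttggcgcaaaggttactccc
IFIT3: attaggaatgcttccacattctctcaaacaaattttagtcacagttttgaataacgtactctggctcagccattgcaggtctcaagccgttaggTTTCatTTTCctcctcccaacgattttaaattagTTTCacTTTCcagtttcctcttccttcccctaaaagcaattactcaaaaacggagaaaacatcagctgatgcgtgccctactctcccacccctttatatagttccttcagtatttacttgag
The element was present in 25 of 44 matched promoters of the list, 56.8%, against 2.3% of all. The genes were listed for their response to interferon, so this larger share is not independent evidence. PLSCR1, a membrane protein that restricts viruses, had 54.4, 61.2 and 54.8 FPKM at 320 µg/mL, against 101, 92.5 and 107 FPKM at 160 µg/mL, and 176, 169.6 and 187 FPKM in untreated cells (log2 fold change -0.81 ± 0.07 SE, adjusted p = 4.42e-06). IRF7, the factor that amplifies interferon production, had 19.5, 17.2 and 21 FPKM at 320 µg/mL, against 33, 45.5 and 39.3 FPKM at 160 µg/mL (log2 fold change -1.02 ± 0.14 SE, adjusted p = 2.04e-04). IFITM1, which blocks viral entry, had 162, 175 and 181 FPKM at 320 µg/mL, against 258, 276 and 308 FPKM at 160 µg/mL (log2 fold change -0.70 ± 0.10 SE, adjusted p = 4.32e-04). In each, the doses were apart and the larger one was lower. MX1, a GTPase against influenza virus, had 8.97, 7.86 and 6.47 FPKM at 320 µg/mL, against 14.5, 14.8 and 15.2 FPKM at 160 µg/mL (log2 fold change -0.94 ± 0.16 SE, adjusted p = 0.0015), and IFIT3 changed by -0.43 on the log2 scale.

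Secreted signals were split. IL1B, interleukin-1β, had 16.6, 17.9 and 16.9 FPKM at 320 µg/mL, against 6.39, 7.25 and 6.2 FPKM at 160 µg/mL (log2 fold change 1.36 ± 0.13 SE, adjusted p = 9.74e-06), and IL1A, the alarmin stored by keratinocytes, had 9.93, 10.7 and 8.88 FPKM at 320 µg/mL, against 4.29, 4.39 and 4.24 FPKM at 160 µg/mL (log2 fold change 1.17 ± 0.13 SE, adjusted p = 3.20e-05). CCL2, which draws monocytes, had 48.8, 47.6 and 58 FPKM at 320 µg/mL, against 90.4, 95.4 and 106 FPKM at 160 µg/mL (log2 fold change -0.92 ± 0.09 SE, adjusted p = 8.09e-06), and CXCL1, which draws neutrophils, had 6.39, 4.97 and 7.3 FPKM at 320 µg/mL, against 14, 11.8 and 9.24 FPKM at 160 µg/mL (log2 fold change -0.90 ± 0.19 SE, adjusted p = 0.00531). Over the list of 26 cytokine and NF-κB genes 3 were higher and 6 lower, 11.5% and 23.1% against 4.84% and 7.68% of all genes. AREG, the EGF receptor ligand amphiregulin, had 26.9, 25.8 and 31.2 FPKM at 320 µg/mL, against 13.8, 16.3 and 15.8 FPKM at 160 µg/mL (log2 fold change 0.87 ± 0.12 SE, adjusted p = 3.00e-04). Of 25 genes of AP-1 and ERK feedback 7 were higher and none lower with limma (11 and 1 at an unadjusted p under 0.05), among them FOS (log2 fold change 0.69 ± 0.10 SE, adjusted p = 4.37e-04) and JUN (log2 fold change 0.60 ± 0.10 SE, adjusted p = 0.0016).

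Of 32 tested targets of NRF2, a transcription factor of the response to electrophiles and oxidants, 7 were lower and 2, SRXN1 and GSR, higher. These are 21.9% and 6.25% of the list, against 7.68% and 4.84% of all genes. The median log2 fold change was -0.10, against -0.04 for all genes. ALDH3A1, an aldehyde dehydrogenase at chr17:19737984-19748943, had 24.8, 22.1 and 27 FPKM at 320 µg/mL, against 61.6, 63.6 and 69.8 FPKM at 160 µg/mL, and 59.1, 62.4 and 58.5 FPKM in untreated cells (log2 fold change -1.40 ± 0.12 SE, adjusted p = 3.64e-06). AKR1C2, an aldo-keto reductase of steroids, had 397, 405 and 398 FPKM at 320 µg/mL, against 766, 754 and 862 FPKM at 160 µg/mL, and 619.9, 643 and 658 FPKM in untreated cells (log2 fold change -0.99 ± 0.08 SE, adjusted p = 1.06e-06). AKR1C1 had 53, 52.5 and 57.8 FPKM at 320 µg/mL, against 91.9, 83.4 and 108 FPKM at 160 µg/mL (log2 fold change -0.79 ± 0.09 SE, adjusted p = 2.78e-05), but AKR1C genes are near-identical and reads may be shared between them. PGD, of the pentose phosphate pathway, fell with them (log2 fold change -0.69 ± 0.07 SE, adjusted p = 1.34e-05). In AKR1C1, AKR1C2 and PGD the mean of untreated cells lay between the doses, with 160 µg/mL highest. MT1X, a metallothionein that binds zinc, copper and silver, was the 1 called of 6 tested metallothioneins, which resemble each other closely, with 662, 738 and 699 FPKM at 320 µg/mL, against 448, 537 and 517 FPKM at 160 µg/mL (log2 fold change 0.49 ± 0.08 SE, adjusted p = 0.0016).

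Among epidermal proteins, KRT16 and KRT17, keratins of wounds and psoriasis, rose. KRT16 had 147, 161 and 174 FPKM at 320 µg/mL, against 71.2, 68.9 and 85.7 FPKM at 160 µg/mL, and 17.1, 18 and 15.2 FPKM in untreated cells (log2 fold change 1.10 ± 0.14 SE, adjusted p = 1.51e-04), and KRT17 had 4451, 4856 and 5278 FPKM at 320 µg/mL, against 2565, 2818 and 2905 FPKM at 160 µg/mL (log2 fold change 0.81 ± 0.13 SE, adjusted p = 7.13e-04). The pseudogene KRT16P6 was among the largest rises (log2 fold change 1.89 ± 0.35 SE, adjusted p = 0.00249), and reads of KRT16, KRT17 and their pseudogenes cannot be cleanly separated. KRT13, of internal epithelia, was lower (log2 fold change -0.43 ± 0.08 SE, adjusted p = 0.0019). Of 14 keratins 3 were higher and 4 lower, 21.4% and 28.6% against 4.84% and 7.68% of all genes. The count of lower ones was 2 without replicate 6, 7, 8 or 9. S100A7, the antimicrobial psoriasin, had 17.9, 23.9 and 21.4 FPKM at 320 µg/mL, against 44.3, 45.6 and 69.4 FPKM at 160 µg/mL (log2 fold change -1.31 ± 0.18 SE, adjusted p = 2.30e-04), and S100A9, a subunit of calprotectin, had 43.4, 47.6 and 45.2 FPKM at 320 µg/mL, against 75.9, 75.5 and 102 FPKM at 160 µg/mL (log2 fold change -0.88 ± 0.12 SE, adjusted p = 2.70e-04). Of 13 S100 genes 4 were lower and none higher (4 and 3 at an unadjusted p under 0.05, limma). The 4 called are 30.8% of the list, against 7.68% of all genes lower. GJB2, the gap junction protein connexin 26, had 90.4, 86.2 and 90 FPKM at 320 µg/mL, against 46.8, 46.7 and 48.1 FPKM at 160 µg/mL (log2 fold change 0.91 ± 0.07 SE, adjusted p = 1.00e-06). CYP1B1, a target of the aryl hydrocarbon receptor, had 20.7, 19.5 and 17 FPKM at 320 µg/mL, against 11.1, 11.7 and 9.3 FPKM at 160 µg/mL (log2 fold change 0.83 ± 0.13 SE, adjusted p = 8.95e-04).

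The largest rises and falls of single genes were taken among called genes that averaged at least 5 FPKM in whichever dose group was higher and whose libraries were fully separated by dose, as those of 31.9% of all genes were. L1CAM, a neural adhesion molecule at chrX:153861514-153886174, led the rises, with 11.7, 9.51 and 10.7 FPKM at 320 µg/mL, against 1.47, 1.5 and 1.46 FPKM at 160 µg/mL, and 0.33, 0.24 and 0.55 FPKM in untreated cells (log2 fold change 2.76 ± 0.18 SE, adjusted p = 2.55e-07). DHRS2, a mitochondrial dehydrogenase at chr14:23630115-23645639, had 4.77, 5.36 and 7.33 FPKM at 320 µg/mL, against 0.75, 0.98 and 1.08 FPKM at 160 µg/mL (log2 fold change 2.5 ± 0.22 SE, adjusted p = 3.44e-06). THBS1, thrombospondin-1, which activates latent TGF-β, had 52.5, 47 and 42.7 FPKM at 320 µg/mL, against 18.5, 17.8 and 10.8 FPKM at 160 µg/mL (log2 fold change 1.62 ± 0.19 SE, adjusted p = 4.70e-05). Libraries at 160 µg/mL were close to each other for L1CAM and more spread for THBS1, where replicate 6 was lowest. PADI3, which converts arginine to citrulline in hair and epidermal proteins, had 15.5, 15.6 and 15.7 FPKM at 320 µg/mL, against 4.68, 4.16 and 4.51 FPKM at 160 µg/mL (log2 fold change 1.79 ± 0.13 SE, adjusted p = 4.13e-07). SRPX (1.82), the actin binder PFN2 (1.47) and the adhesion receptor ADGRB2 (1.37) were also among the 15 largest rises, on the log2 scale. MAPK15, an atypical MAP kinase, had 17.7, 16.2 and 16.9 FPKM at 320 µg/mL, against 7.23, 9.31 and 4.33 FPKM at 160 µg/mL (log2 fold change 1.34 ± 0.31 SE, adjusted p = 0.0111), a call lost without replicate 6 (adjusted p = 0.0537).

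The fall of largest size was that of BCL2L2-PABPN1, a read-through of a pair of neighbouring genes whose reads cannot be told from theirs. It had 2.69, 1.47 and 0 FPKM at 320 µg/mL, against 8.13, 6.04 and 4.98 FPKM at 160 µg/mL, where the 0 may be a failed estimate, and its call was lost without replicate 4 (adjusted p = 0.0798), replicate 5 (0.0681), replicate 6 (0.0619) or replicate 9 (0.0762), and its log2 fold change was -1.6 without replicate 9 (log2 fold change -3.06 ± 0.88 SE, adjusted p = 0.0325). MPPED2, a phosphodiesterase, had 12.2, 12.3 and 12.6 FPKM at 320 µg/mL, against 34.1, 30.6 and 25.5 FPKM at 160 µg/mL (log2 fold change -1.27 ± 0.17 SE, adjusted p = 2.18e-04). CD86, a ligand that costimulates T cells, had 5.51, 4.77 and 4.68 FPKM at 320 µg/mL, against 11, 10.8 and 14.4 FPKM at 160 µg/mL (log2 fold change -1.25 ± 0.14 SE, adjusted p = 4.51e-05). UCP2, a carrier of the inner mitochondrial membrane, had 6.79, 5.8 and 7.82 FPKM at 320 µg/mL, against 15.2, 17.2 and 13 FPKM at 160 µg/mL (log2 fold change -1.14 ± 0.24 SE, adjusted p = 0.00611). That none of these 3 overlapped between the doses was a condition of their choice. TRANK1 was lower by 1.14 on the log2 scale.

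None of 78 ribosomal protein genes was called with limma, none at an unadjusted p under 0.05 either, and their median was -0.04. Of 55 nuclear genes of the respiratory chain all had a negative fold change, 7 were lower and none higher (18 and 0 at an unadjusted p under 0.05) and the median was -0.22. At that unadjusted threshold 3250 of the 11952 genes tested differed in either direction. The 7 are 12.7% of the list, against 7.68% of all genes lower. That count of 7 was 3 with median ratio scaling, 11 without replicate 4, 4 without replicate 6 or 9 and 3 without replicate 7 or 8. Of 25 heat shock and cytosolic chaperone genes 2 were higher and none lower (3 and 2 at an unadjusted p under 0.05), 8% of the list against 4.84% of all genes higher, and the count of higher ones was 1 without replicate 4, 5, 6 or 9 and 0 without replicate 8. Of 14 housekeeping genes 1 was higher, 1 was lower and 12 were not called, with a median of -0.06. The higher one, ACTB, often used as a reference gene, was not level, with 2533, 2457 and 2493 FPKM at 320 µg/mL, against 2004, 1967 and 1724 FPKM at 160 µg/mL (log2 fold change 0.40 ± 0.07 SE, adjusted p = 0.00143).

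Both doses were also set beside untreated cells, in contrasts that share libraries with the comparison of doses and with each other. The matrix list had a median log2 fold change against untreated cells of 1.45 at 160 µg/mL and 2.02 at 320 µg/mL. At 160 and 320 µg/mL the medians were 1.16 and 1.27 for TGF-β targets, -0.63 and -1.35 for mitosis, -1.14 and -2.12 for histones, -0.66 and -1.13 for cholesterol, -0.71 and -1.03 for interferon genes and 0.09 and 0.36 for ER chaperones. Over all genes the medians were -0.14 and -0.18. TGFB1 had 0.97 at 160 µg/mL and 1.08 at 320 µg/mL, and TIMP1 0.75 at 160 µg/mL and 0.86 at 320 µg/mL. COL1A1 had 1.74 at 160 µg/mL and 2.65 at 320 µg/mL and SERPINE2 2.66 at 160 µg/mL and 4.02 at 320 µg/mL.

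**Figure D4:**
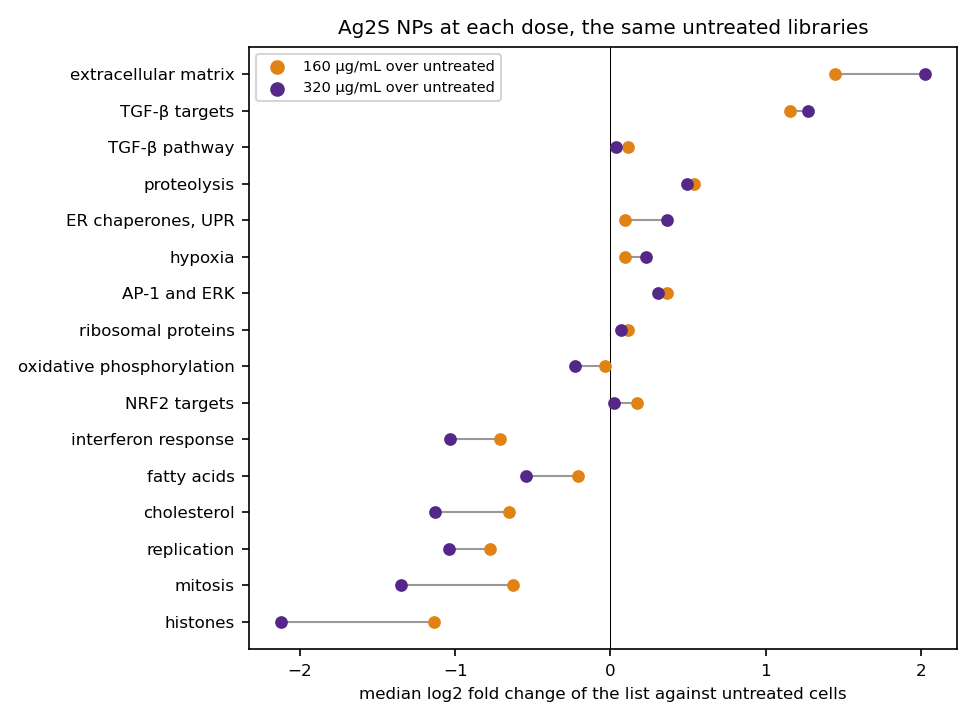
Median log2 fold change of each of 16 gene lists against the same 3 untreated libraries, in orange at 160 µg/mL and in purple at 320 µg/mL. The histone list is at -1.14 and -2.12 and the matrix list at 1.45 and 2.02 along the dose series.

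The same step of dose was measured with Li-doped Ag2S NPs in 6 other libraries, and the undoped step minus the doped step was tested as an interaction in limma. The doped particle is the same sulfide with lithium added during synthesis. The step differed between the particles for 4746 of 11952 genes, 39.7%, and for 1267 of the 1497 genes called with the undoped particle. Those 1497 were chosen by their undoped step, which enters the difference, so a larger share among them follows from that choice. Of those 1497 genes, 899 were called in the opposite direction with the doped particle and 118 in the same direction. The doses of all libraries were taken from the labels, and no value here checks them independently. If the dose labels of the 6 doped libraries were exchanged, every doped step would change its sign, so that these opposite calls would be same-direction calls and the reverse. Replicate 15 of the doped particle at 320 µg/mL stands apart in its summed FPKM, 698558, and without it 4507 genes differed.

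Of the 30 largest rises and falls of the undoped step, 22 had a doped step called with the opposite sign, 1, COL5A3, had one called with the same sign (0.35 on the log2 scale, adjusted p = 0.0425, limma) and 7 had a doped step that was not called. The 3 described next are among the 22 and were chosen after their values were seen. The step of DHRS2 was 2.5 on the log2 scale with the undoped particle and -3.69 with the doped one, where it had 1.85, 1.51 and 1.05 FPKM at 320 µg/mL, against 19.3, 19.8 and 19.9 FPKM at 160 µg/mL (interaction adjusted p = 1.24e-09). For ALDH3A1 the steps were -1.40 undoped and 3.56 doped, from 47.9, 47.8 and 61.7 FPKM at 320 µg/mL, against 4.26, 3.66 and 5.19 FPKM at 160 µg/mL (adjusted p = 2.23e-11). For L1CAM they were 2.76 undoped and -1.69 doped, from 13, 13.1 and 10.8 FPKM at 320 µg/mL, against 38.8, 39.3 and 40.8 FPKM at 160 µg/mL (adjusted p = 6.68e-09). Opposite signs were a condition of that choice, and within the doped particle the libraries of the doses did not overlap in any of the 3.

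The lists were compared in the same way. The mitosis list had a median of -0.68 for the undoped and 0.31 for the doped step, and the difference was called in 36 of 40 genes. The undoped and doped medians were -0.48 and 0.52 for cholesterol (20 of 27 genes called), -0.36 and 0.75 for interferon genes (46 of 57), -0.91 and 0.89 for histones (17 of 20) and 0.33 and -0.67 for ER chaperones (21 of 25). Collagen genes had medians of one sign, 0.37 undoped and 0.45 doped, and 3 of 16 chains differed in their step. The step of COL1A1 was 0.91 undoped and 0.87 doped, the doped libraries holding 34.6, 40.2 and 33.1 FPKM at 320 µg/mL, against 17.3, 21 and 20.6 FPKM at 160 µg/mL. Their difference was 0.04 ± 0.19 SE with a 95% interval of -0.36 to 0.44, and it did not pass the test (adjusted p = 0.894, limma). TGFB1 did not pass it either (difference 0.34, adjusted p = 0.0757), and TIMP1 did (difference 1.03, adjusted p = 2.08e-05).

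**Figure D5:**
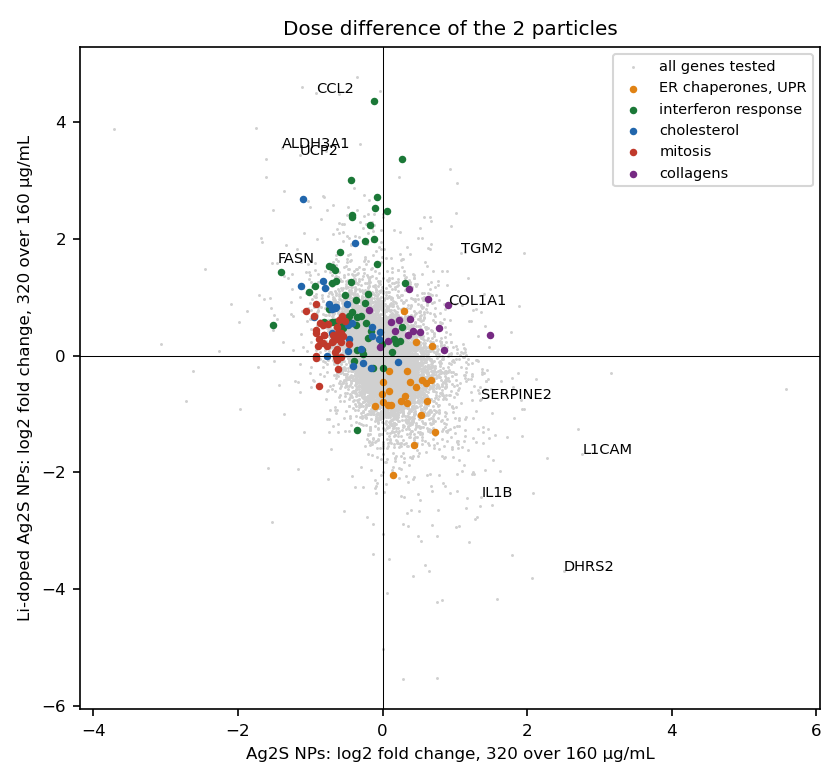
Log2 fold change at 320 over 160 µg/mL with undoped Ag2S NPs (horizontal) and Li-doped Ag2S NPs (vertical), grey for all genes tested and coloured for 5 lists. Mitosis, cholesterol and interferon genes lie mostly at the upper left and ER chaperones mostly at the lower right, while collagens lie mostly at the upper right.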

How the data were processed

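RNA of HaCaT cells was sequenced with reads of 150 bases in 15 libraries, grouped by the sample labels. The authors aligned reads with TopHat and made FPKM with Cufflinks 2.1.1 and Cuffdiff, correcting for fragment bias and for reads that map to several places. The deposited FPKM are rounded to 2 decimals. Genome build and annotation: not given in the sources used here. All 17214 gene identifiers shared by both 9-library tables, out of 17653 and 17740, occur with the same names in GENCODE 29 (GRCh38). The authors' group FPKM, log2 ratio, p-value and q-value columns were not used. Depth is unknown, so precision rests on the spread of 3 libraries.

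Log2(FPKM + 0.1) of genes with a mean of at least 1 FPKM was fitted in 1 model of 5 groups with limma 3.58.1 in R 4.3.3 (eBayes with trend, two-sided, Benjamini-Hochberg). The scale understates changes of low genes. The fit was tested on simulated data. Named genes were the 15 largest rises and 15 largest falls with at least 5 FPKM and no overlap, up to 4 members of each list by p, and the matrix genes. Some genes under this rule are not reported here. IFIT3, HSP90B1, CANX, CRELD2, XBP1, IRF1, FADS3, ELOVL4, SRXN1 and GSR were chosen after their values were seen. Members and gene lists were chosen with earlier results of these data known. Of the genes tested, 9263 matched a RefSeq promoter. Alternatives were other pseudocounts, filters and scaling, a fit of 6 libraries, a robust fit, weights and leaving out libraries.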

Additional observations from a re-analysis of the deposited data

Results flagged for a closer look

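The step of dose, 320 over 160 µg/mL, differed between undoped and Li-doped Ag2S NPs for 94 of the 106 genes with values in the text (interaction in limma, adjusted p under 0.05), against 39.7% of all genes tested. Most of the 106 were named for their undoped step, which enters the difference, so a larger share follows from how they were chosen. The doses are those of the labels, and an exchange of the labels of the doped doses would change every value below. The value given is the undoped step minus the doped step on the log2 scale, so that a positive one means a higher step with the undoped particle. 

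Among matrix, adhesion and TGF-β response genes it was 4.45 for L1CAM, 3.61 for THBS1, 2.89 for SRPX, 2.85 for TNC, 2.24 for LAMA3, 2.11 for SERPINE2, 1.66 for ADGRB2, 1.40 for FN1, 1.22 for MMP1, 1.17 for ENTPD2, 1.14 for COL5A3, 1.03 for TIMP1, 1.03 for MMP10, 0.83 for SMAD7, 0.75 for COL5A1, 0.71 for LOXL1 and 0.38 for LAMB3. In the other direction, among the same group, it was -4.18 for AMTN, -3.94 for LUM, -2.72 for MMP7, -2.12 for ID3, -1.61 for ID2, -0.68 for TGM2, -0.39 for COL4A2 and -0.30 for TGFBI.

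Among cell division, replication and histone genes it was -3.23 for HIST1H2BD, -2.55 for HIST1H4H, -2.29 for MCM5, -2.26 for HIST1H2BK, -2.09 for CENPW, -1.87 for HIST1H2AC, -1.63 for FOXM1, -1.51 for HIST1H2BC, -1.43 for CCNB2, -1.16 for PLK1, -1.15 for CCNB1 and -0.62 for PCNA.

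Among lipid genes it was -3.04 for FASN, -2.51 for SCD, -2.29 for ACSL1, -2.10 for INSIG1, -1.61 for DHCR7 and -1.49 for EBP.

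Among genes of ER stress, amino acids and hypoxia it was 3.93 for EGLN3, 2.18 for SLC7A5, 2.04 for HSPA5, 1.85 for NDRG1, 1.55 for XBP1, 1.45 for CA12, 1.40 for HSP90B1, 1.03 for CANX, 0.96 for PDIA3 and 0.53 for CALR. In the other direction, among the same group, it was -2.13 for ATF5.

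Among interferon, cytokine and growth signal genes it was 3.79 for IL1B, 3.61 for IL1A, 3.09 for AREG, 1.97 for MAPK15, 1.27 for JUN and 1.25 for FOS. In the other direction, among the same group, it was -5.42 for CCL2, -3.44 for IFIT3, -2.38 for CD86, -2.13 for MX1, -2.10 for IRF7, -1.94 for IFITM1, -1.40 for PLSCR1 and -1.15 for CXCL1.

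Among the other named genes it was 6.19 for DHRS2, 2.88 for PFN2, 2.77 for CYP1A1, 2.67 for DHRS9, 2.17 for PADI3, 1.91 for IGFBP3, 1.30 for GJB2, 1.28 for CYP1B1, 1.21 for ALDH1A3, 1.21 for SLC39A14, 1.04 for GADD45B, 0.89 for ACTB and 0.65 for KRT17. In the other direction, among the same group, it was -4.96 for ALDH3A1, -4.57 for UCP2, -3.27 for BCL2L2-PABPN1, -2.64 for S100A7, -2.33 for KRT13, -2.14 for TRANK1, -1.99 for MPPED2, -1.72 for S100A9, -1.45 for AKR1C2, -1.02 for NEU1, -0.94 for PGD, -0.74 for CTSV and -0.69 for PSMC3.

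Without the doped library that stands apart, replicate 15 at 320 µg/mL, the difference of TGM2 was no longer called (-0.60, adjusted p = 0.0653) and those of the other 93 genes were. Groups of 3 libraries are too small for a test of single outlying libraries.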

How the results depend on the processing

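Over the 16 fits the count of higher genes lay within 1.5 times its value of 579 except with weights per library (1047 higher, 1951 lower) and when a library was left out, where it ranged from 331 to 538 for higher and from 584 to 745 for lower genes. It was 610 and 949 with a pseudocount of 1, 563 and 896 with 0.01, 546 and 804 without a filter, 485 and 905 at a mean of at least 5 FPKM, and 390 and 642 in the 6 Ag2S libraries alone. The cause of these shifts was not tested. Genes past a 2-fold difference numbered 37 higher and 24 lower with a pseudocount of 1, 41 and 27 at a mean of at least 5 FPKM, against 103 and 54. Median ratio scaling gave 801 higher and 625 lower. Of 1582 refitted log2 fold changes of 106 named genes, 1537 kept their direction and call, 40 kept their direction and lost the call and 5 gained one; 92 genes stayed on the same side of the threshold in every alternative. The difference between the undoped and doped steps of COL1A1, not called in any fit, changed sign with weights per library (-0.078), without replicate 15 of the doped 320 µg/mL group (-0.02, an alternative chosen after seeing the data) and over the fits that leave out 1 library of undoped Ag2S (-0.12 to 0.14). No paired analysis was possible because the replicate numbers of the groups are all different.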

Other observations

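Several smaller gene groups of keratinocytes held genes that differed between the doses of undoped Ag2S NPs, some groups in both directions and others in 1 only. Of 18 tested genes of retinoid uptake and metabolism 3 were higher and 4 lower, 16.7% and 22.2% against 4.84% and 7.68% of all genes. The count of lower genes was 2 without replicate 5 or 9. DHRS9, a retinol dehydrogenase, had 2.14, 2.18 and 1.05 FPKM at 320 µg/mL, against 0.25, 0.35 and 0.59 FPKM at 160 µg/mL (log2 fold change 1.92 ± 0.32 SE, adjusted p = 0.00135, limma), and ALDH1A3, which makes retinoic acid, had 76.5, 71.7 and 69.5 FPKM at 320 µg/mL, against 45.6, 43.4 and 44.1 FPKM at 160 µg/mL (log2 fold change 0.71 ± 0.14 SE, adjusted p = 0.00381). Both rose, though DHRS9 was low throughout. Of 11 targets of the aryl hydrocarbon receptor 5 were higher and 1, ALDH3A1, was lower, and the count of higher genes was 3 without replicate 5 or 7 and 2 without replicate 8. CYP1A1, the classical target, had 0.95, 1.19 and 0.99 FPKM at 320 µg/mL, against 0.35, 0.29 and 0.48 FPKM at 160 µg/mL (log2 fold change 1.29 ± 0.32 SE, adjusted p = 0.0146), and it did not pass without replicate 8 (adjusted p = 0.0614). Of 20 targets of YAP 4 were higher and none lower with limma (4 and 1 at an unadjusted p under 0.05, and 1 was lower without replicate 6). The 4 called are 20% of the list, against 4.84% of all genes higher. Among them was GADD45B, a stress sensor (log2 fold change 0.77 ± 0.15 SE, adjusted p = 0.00436). Another, IGFBP3, which binds insulin-like growth factors, rose with the step (log2 fold change 0.36 ± 0.07 SE, adjusted p = 0.00308) but stayed below untreated cells. IGFBP3 had 85.1, 80.2 and 85.1 FPKM at 320 µg/mL, against 67.8, 67 and 60.9 FPKM at 160 µg/mL, and 178, 176 and 191 FPKM in untreated cells.

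Lysosomal and proteasomal lists had median log2 fold changes of -0.10 and -0.14, against -0.04 over all genes. Of 40 genes of lysosomes and autophagy 9 were lower and 3 higher, 22.5% and 7.5% against 7.68% and 4.84% of all genes. The counts were 5 lower without replicate 6 or 9 and 1 higher without replicate 8. CTSV, a cathepsin of epidermis and thymus, had 101, 109 and 107 FPKM at 320 µg/mL, against 61.3, 64 and 69.6 FPKM at 160 µg/mL (log2 fold change 0.70 ± 0.07 SE, adjusted p = 2.24e-05), and NEU1, a sialidase, had 29.5, 34.1 and 33.9 FPKM at 320 µg/mL, against 45.1, 46.3 and 45.3 FPKM at 160 µg/mL (log2 fold change -0.49 ± 0.07 SE, adjusted p = 2.25e-04). Of 34 constitutive proteasome genes 5 were lower and none higher with limma (13 and 0 at an unadjusted p under 0.05), with 2 lower without replicate 6 or 7 and 3 without replicate 8 or 9. The 5 are 14.7% of the list, against 7.68% of all genes lower. PSMC3, an ATPase of the cap, had 68.9, 73.9 and 79.6 FPKM at 320 µg/mL, against 91.8, 86.7 and 101 FPKM at 160 µg/mL (log2 fold change -0.33 ± 0.07 SE, adjusted p = 0.00637). Among 24 carriers and chaperones of zinc and copper 2 were higher and 1 lower, against 4.84% and 7.68% of all genes; 1 was higher without replicate 4, 7, 8 or 9, and none was lower when any of the 6 libraries was left out. SLC39A14, an importer of zinc and iron, was higher (log2 fold change 0.51 ± 0.07 SE, adjusted p = 3.54e-04), with 53.8, 50.2 and 49.7 FPKM at 320 µg/mL, against 37.3, 36.4 and 33.8 FPKM at 160 µg/mL.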
